A study of Caenorhabditis elegans with 27 samples.

Results

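Among the genes of Caenorhabditis elegans, 281 autosomal genes that each cover at least 15000 bp of the genome and are transcribed in these worms were followed through acute loss of topoisomerase I, topoisomerase II or DPY-27. They were taken by a fixed rule: a location on chromosome I, II, III, IV or V, a distance from start to stop of at least 15000 bp, and a TPM (a gene's share of the library's transcripts, corrected for length) of at least 1 in at least 2 of the 27 libraries. The rule took 281 of the 287 autosomal genes of that length and used no measured change. It leaves 11763 shorter autosomal genes, out of 14271 genes tested and 20390 listed.

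Topoisomerase I cuts a single strand of DNA and lets the helix turn, and topoisomerase II cuts both strands and passes another duplex through the break. Both relax the supercoils that a moving RNA polymerase leaves ahead of it and behind it. Most worm genes are compact, and the very long ones include the giant muscle and matrix proteins, cell adhesion molecules, ion channels, synaptic proteins and signalling receptors. In mammalian neurons, inhibitors of topoisomerase I are known to lower the transcripts of long genes.

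RNA came from whole L2/L3 larvae of 4 strains, all of which make the plant F-box protein TIR1. AM05 carries top-1::degron::GFP, SS01A carries top-2::degron::GFP, AM01 carries dpy-27::degron::GFP, and CA1200 makes TIR1 with no tagged target; the degron strains are called here TOP-1, TOP-2 and DPY-27 worms. DPY-27 is a condensin subunit that acts on the X chromosomes. Worms were grown for 24 h at 22 °C and given 1 mM auxin (indole-3-acetic acid) for 0, 30, 60 or 120 min, in DPY-27 worms for 0 or 120 min only. Every group was sequenced as 2 libraries, apart from a single CA1200 library at 60 min. The second replicate of DPY-27 worms was of mixed stage at both times. Auxin removes the tagged protein, so the RNA of top-1, top-2 and dpy-27 is no check of the depletion. Each degron strain is a single line, so the tag and the rest of its genome cannot be told apart. In whole worms, fewer cells of a type and less RNA per cell cannot be told apart.

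Libraries had an estimated 5.75 to 21.6 M fragments, and the median long gene rested on 593 to 1955 fragments. The 6 libraries of replicate 1 of the TOP-2 and DPY-27 strains stood apart from the other 21. They had 5.75 to 9.46 M fragments against 11.8 to 21.6 M, and ribosomal protein genes took a smaller share of their TPM. The long genes took 1.07% to 1.48% of all TPM in those 6 libraries and 0.326% to 0.852% in the others. Summed molting-cycle markers, in TPM as deposited, were also lower with time in TOP-1 worms. They were 202 and 1838 without auxin and 49.7 and 612 after 120 min in replicates 1 and 2. They were 483 and 614 in CA1200 without auxin and 218 and 715 after 120 min. In TOP-2 worms they were also lower, with 2510 and 324 without auxin and 1911 and 183 after 120 min. DPY-27 worms had 915 and 297 without auxin and 1221 and 126 after 120 min. The part of stage in the changes below was not tested. The replicates are described as biological without separate cultures being named, so p-values measure the spread between these samples, which may be technical.

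The long genes spanned 15038 to 93106 bp in the deposited tables, with a median of 20057 bp. There were 139 of 15 to 20 kb, 102 of 20 to 30 kb and 40 of 30 kb or more, and chromosomes I to V held 71, 48, 59, 65 and 38 of them. Of the 273 that matched a gene of the WBcel235 annotation, 261 were at least 15000 bp long there too. These 261 had a median of 16 exons, 3600 bp of coding sequence and a longest intron of 5488 bp, against 6 exons, 1032 bp and 465 bp in the other autosomal genes. Coding sequence made up a median of 16.4% of the span and ranged from 2.63% to 90.6%. At the high end stand genes such as dig-1, which encodes a giant protein of the basement membrane, with 39252 bp of coding sequence in a span of 48458 bp.

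A group of 9 had a reference gene under 5 kb, among them math-22, listed at 93106 bp, the Mediator subunit gene mdt-4, listed at 89572 bp, fipr-24, listed at 73464 bp, and rab-1, which encodes a GTPase of the early secretory pathway. Results are therefore also given for the 261. Another 8 had no match and 3 were of 5 to 15 kb there. Among the 10 longest as listed, the long ones in the reference were ttn-1 (81719 bp), the classical cadherin gene hmr-1 (58911 bp), unc-89 (55219 bp), the afadin gene afd-1 (49594 bp) and dig-1, the short ones also included F07E5.7 (58635 bp), and C56E6.9 (55735 bp) was unmatched. At least 1 other gene overlapped 106 of the 281, and 72 held a whole gene inside.

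The long genes were not weakly expressed. Their mean level over the 27 libraries had a median of 11.9 scaled TPM, against 8.18 in the shorter autosomal genes, and 257 of the 281 reached 1 TPM in every library. The highest mean levels were those of rab-1 at 292, the reticulon gene ret-1 at 234.5, mig-6 at 223 and nurf-1 at 219 scaled TPM. mig-6 encodes papilin, a matrix protein, and nurf-1 the largest subunit of the nucleosome remodelling factor NURF. Next came the CaM kinase II gene unc-43 at 171, jun-1 at 143, the protein kinase A gene kin-1 at 121, the ankyrin gene unc-44 at 105, pat-12 at 94.3 and the acetyl-CoA carboxylase gene pod-2 at 94.1. TPM is per transcript length, so these levels compare genes on a common scale.

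Without auxin, the median long gene stood at 4.16 and 3.94 on the log2(scaled TPM + 1) scale in the 2 libraries of TOP-1 worms. It stood at 3.80 and 3.95 in TOP-2 worms, 3.72 and 4.03 in CA1200, and 3.78 and 3.82 in DPY-27 worms. Before auxin both TOP-1 libraries thus lay above both DPY-27 libraries, while every other pair of strains overlapped. TOP-1 replicate 1 was the highest. The median strain difference from CA1200 was 0.13 for TOP-1, 0.01 for TOP-2 and -0.10 for DPY-27 worms, and limma called 0 long genes. The share of all genes tested that limma called was 0% for AM05 and SS01A, and 0.0841% lower and 0.392% higher for AM01. At an unadjusted p under 0.05, 0 long genes were lower and 8 higher in AM05, against 1.6% and 1.48% of all genes. In SS01A 3 were lower and 5 higher, against 3.33% and 2.96%, and in AM01 15 and 16, against 8.09% and 12.7%.

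**Figure D1:**
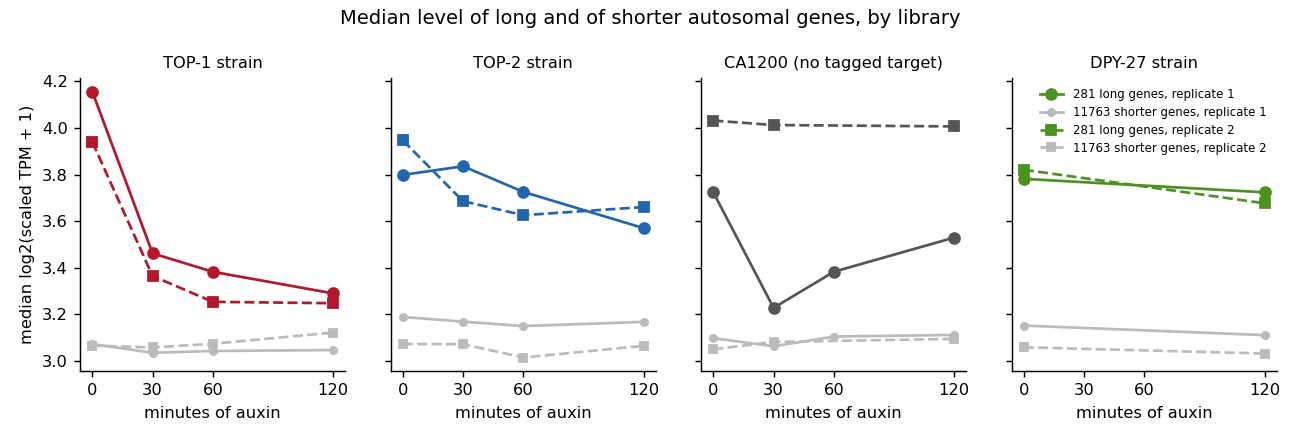
Median level of the 281 long genes (colour) and of the 11763 shorter autosomal genes (grey) in each library, as median log2(scaled TPM + 1) against minutes of auxin; solid and dashed lines are replicates 1 and 2. In TOP-1 worms both replicates went from 4.16 and 3.94 to 3.29 and 3.25. The shorter genes kept to between 3.02 and 3.19 in every library of the 4 strains. The scaling between libraries itself holds the median of most genes nearly level.

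The comparison within TOP-1 worms asks how these transcripts change when topoisomerase I is depleted. After 30, 60 and 120 min of auxin the median long gene of TOP-1 worms stood at 3.46 and 3.37, at 3.38 and 3.25, and at 3.29 and 3.25 in the 2 libraries. All 6 auxin libraries lay below both libraries without auxin. The median change was -0.62 at 30 min, -0.74 at 60 min and -0.83 at 120 min, against 0.00, -0.00 and 0.02 in the shorter autosomal genes. The scaling between libraries itself holds the median of most genes near 0. With TPM as deposited the long genes had -0.66, -0.71 and -0.84, and the shorter ones -0.04, 0.01 and 0.00. These 3 comparisons share the same libraries without auxin. The replicate medians were -0.70 and -0.55 at 30 min, -0.84 and -0.66 at 60 min, and -0.91 and -0.67 at 120 min.

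At 120 min limma, with Benjamini-Hochberg adjustment over the 14271 genes tested, called 28 long genes lower and 0 higher, against 1.11% of all genes tested called lower and 0.827% higher. At an unadjusted p under 0.05, 128 were lower and 2 higher, against a background of 6.66% and 7.13%. With the replicate as a block, 173 were called lower and 2 higher, against 11.5% of all genes in each direction, and all 28 were among the 173. The 2 libraries with auxin lay below the 2 without in 195 long genes and above them in 9, where the background was 20.5% and 23.6%. The 28 depend on single libraries: leaving out either untreated TOP-1 library (replicate 1 or 2) left 3 calls, leaving out 120 min replicate 1 left 1, and leaving out 120 min replicate 2 left 16. With TPM as deposited, without scaling between libraries, 0 were called and 53 were lower at an unadjusted p under 0.05. Of the 281 changes, 255 were negative and 26 positive. They ranged from -3.57 to 2.31, with quartiles of -1.21 and -0.36.

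Earlier times gave fewer calls. At 60 min limma called 10 long genes lower and 0 higher, against 0.385% and 0.133% of all genes, and 155 with the replicate as a block, against 8.03%; without any single library of the comparison (TOP-1 0 min replicate 1 or 2, 60 min replicate 1 or 2) 0 were called. The 10 were daf-2, Y64G10A.7, Y69A2AR.16, agef-1, ddx-27, Y48E1B.3, pro-3, slo-1, cua-1 and ppgn-1. At 30 min limma called 0 against 0.00701% of all genes, with 89 lower and 0 higher at an unadjusted p under 0.05, where the background was 3.43% and 3.01%. The block called 100 lower at 30 min, against 3.15%. From 30 to 120 min the median long gene of TOP-1 worms moved by a further -0.15, with 0 called by limma and 20 lower and 5 higher at an unadjusted p under 0.05, against 1.93% and 2.37% of all genes; the background called higher was 0.00701%.

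The authors' deposited table for TOP-1 worms at 120 min against no auxin lists 56 long genes as lower and 0 as higher among 279 with an adjusted p, where 2.16% of all its genes are lower and 1.49% higher. Its median log2 fold change for the long genes is -1.02. The authors' deposited table lists 51 of 278 as lower at 60 min, against 1.61%, and 8 of 277 at 30 min, against 0.336%.

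The 261 genes that are long in the reference had a median change of -0.86 at 120 min, with 244 negative. With the replicate as a block, 167 of them were called lower and 0 higher, against 11.5% of all genes in each direction. The 9 with a short reference gene had a median of 0.05, between -0.30 and 2.31, and the 8 without a match -0.91. Among the 10 longest as listed, the changes were -0.93, -0.82, -0.80, -1.33 and -1.08 in ttn-1, hmr-1, unc-89, afd-1 and dig-1, and 0.21, -0.25, 2.31 and -0.30 in math-22, mdt-4, fipr-24 and F07E5.7, with none called by limma. The 2 genes called higher with the block were fipr-24 and K03H6.6; the former has a short reference gene and the latter none.

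In TOP-1 worms at 120 min the median change was 0.18 in autosomal genes under 1 kb, 0.15 at 1 to 2 kb, 0.02 at 2 to 5 kb, -0.27 at 5 to 10 kb and -0.50 at 10 to 15 kb. The long genes continued this to -0.81 at 15 to 20 kb and -0.90 at 20 to 30 kb, and those of 30 kb or more stood at -0.84. Within the long genes, then, the median moved little with further length. CA1200 at 60 min is a single replicate 1 library, set here against both untreated libraries. Its medians were 0.15, 0.10, -0.03, -0.20, -0.31, -0.41, -0.44 and -0.49 from the shortest class to the longest. At 30 min CA1200 had 0.04 under 1 kb and -0.25, -0.32 and -0.19 in the 3 classes from 15 kb upward, and at 120 min -0.05 and -0.07, -0.08 and -0.00. In the same classes from 15 kb upward, the medians at 120 min in TOP-2 worms were -0.25, -0.29 and -0.33. Just inside the threshold, scpr-1 (15038 bp), Y94H6A.5 (15064 bp) and ppgn-1 (15079 bp) had changes of -1.56, -0.53 and -1.54, and just outside ints-8 (14995 bp), catp-1 (14973 bp) and gar-3 (14969 bp) had -0.26, -0.99 and -0.08.

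**Figure D2:**
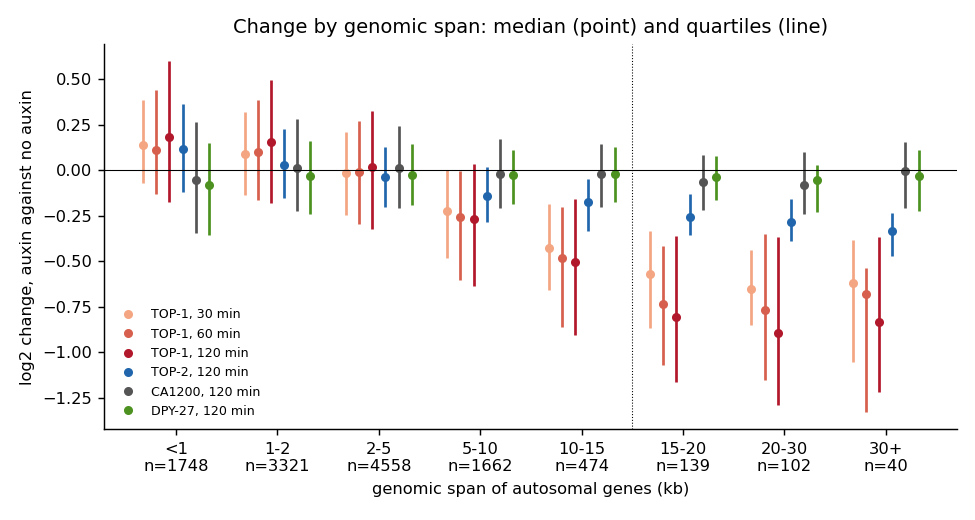
Median log2 change against no auxin (points) and its quartiles over genes (bars) for autosomal genes grouped by genomic span in kb. TOP-1 worms are shown after 30, 60 and 120 min of auxin, and TOP-2 worms, CA1200 and DPY-27 worms after 120 min. The number of genes stands under each class and the dotted line marks 15 kb. At 120 min the TOP-1 median goes from 0.18 under 1 kb to between -0.81 and -0.90 in the 3 classes of long genes.

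Structure within the 261 reference-long genes separated them only weakly. Spearman's rho of the 120 min change in TOP-1 worms was -0.13 with span, 0.18 with the longest intron, -0.16 with coding length and 0.15 with mean level. These are descriptions over 261 genes that share the same 4 libraries. The genes with the shortest longest introns (415 to 3894 bp) had a median of -1.02, and those with the longest (7800 to 23890 bp) -0.75. By chromosome the median long gene changed by -0.94 on I, -0.54 on II, -0.95 on III, -0.69 on IV and -0.80 on V, with 10, 1, 7, 6 and 4 called lower. On chromosome II the 42 reference-long genes had a median of -0.61.

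The 12 largest called falls at 120 min ran from 2.28 to 1.73 on the log2 scale. Y48E1B.3, a gene of 20752 bp on chromosome II (13547178 to 13567929), had 19.6 and 18.7 scaled TPM without auxin, 10.1 and 10.5 after 30 min, 6.25 and 4.66 after 60 min and 3.13 and 3.17 after 120 min. It fell by 2.28 ± 0.31 (log2 change ± SE, limma adjusted p 0.00347), and the levels at successive times did not overlap. In CA1200 it stood at 19.4 and 22.1 without auxin and 17.0 and 19.5 after 120 min.

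gbf-1 encodes an exchange factor for Arf GTPases at the Golgi. Its level was 27.5 and 54.8 scaled TPM without auxin, 15.4 and 34.9 at 30 min, 10.0 and 20.5 at 60 min and 4.64 and 11.3 at 120 min. Each replicate went down at every step while the replicates stayed about as far apart as before. It fell by 2.26 ± 0.48 (adjusted p 0.0282). agef-1, the exchange factor for Arf GTPases of the trans-Golgi, had 13.9 and 17.4 scaled TPM without auxin and 3.58 and 4.44 at 120 min, a fall of 1.73 ± 0.29 (adjusted p 0.00999). tat-1, which encodes a flippase for phosphatidylserine that acts in endocytic sorting, fell by 1.34 ± 0.28 (adjusted p 0.0242).

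rbc-2, a relative of rabconnectin, which regulates proton pumps of vesicles, had 11.9 and 9.38 scaled TPM without auxin and 2.13 and 2.26 at 120 min. It fell by 1.85 ± 0.31 (adjusted p 0.00999). herc-1, named for its HECT and RCC1-like domains and 43209 bp long, had 12.9 and 16.6 without auxin and 1.99 and 3.57 at 120 min, and fell by 2.08 ± 0.31 (adjusted p 0.00596). The groups of neither gene overlapped.

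emb-4 encodes the worm form of the intron-binding helicase Aquarius and covers 34690 bp of chromosome V. It had 27.8 and 30.1 scaled TPM without auxin, 11.7 and 15.3 at 30 min and 5.01 and 8.12 at 120 min, a fall of 2.01 ± 0.37 (adjusted p 0.0149). hrpu-2, a relative of the nuclear RNA-binding protein hnRNP U, was the most abundant of the 12 named, with 64.4 and 63.9 scaled TPM without auxin and 13.99 and 19.3 at 120 min. It fell by 1.90 ± 0.33 (adjusted p 0.0124). pro-3, whose yeast counterpart acts in ribosome biogenesis, fell by 1.80 ± 0.31 (adjusted p 0.0123), from 14.9 and 8.56 to 2.25 and 2.88. Smaller falls were called in prp-6, a splicing factor (-1.31), ddx-27, a DEAD-box helicase (-1.44), tftc-1, a subunit of transcription factor IIIC (-1.52), and npp-8, a nucleoporin (-1.43).

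slo-1, the calcium-activated potassium channel, had 15.2 and 7.58 scaled TPM without auxin, 3.54 and 2.59 at 30 min, 2.31 and 1.35 at 60 min and 2.605 and 1.76 at 120 min. It fell by 2.08 ± 0.42 at 60 min (adjusted p 0.0494) and by 1.90 ± 0.42 at 120 min (adjusted p 0.0340), so that its lowest levels were already reached at 60 min. daf-2, the insulin receptor, had 13.6 and 17.4 scaled TPM without auxin, 6.40 and 6.36 at 30 min, 4.11 and 4.30 at 60 min and 3.31 and 5.005 at 120 min, a fall of 1.69 ± 0.34 (adjusted p 0.0230). In CA1200 daf-2 had 13.9 and 17.2 without auxin and 11.5 and 22.9 at 120 min, which overlap. dapk-1, a death-associated protein kinase, and gap-3, a GTPase-activating protein for Ras, fell by 1.25 and 1.21 (adjusted p 0.0473 and 0.0348).

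Of the rest of the 12, Y64G10A.7 fell by 2.09 ± 0.27 (adjusted p 0.00340), from 12.9 and 11.8 scaled TPM to 2.26 and 1.99, and was the one gene still called without 120 min replicate 1. hpo-29, named from a screen for sensitivity to a pore-forming toxin, fell by 1.96 ± 0.35 (adjusted p 0.0145), and Y69A2AR.16 by 1.74 ± 0.31 (adjusted p 0.0130). In all 12 the libraries with 120 min of auxin lay below those without.

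**Figure D3:**
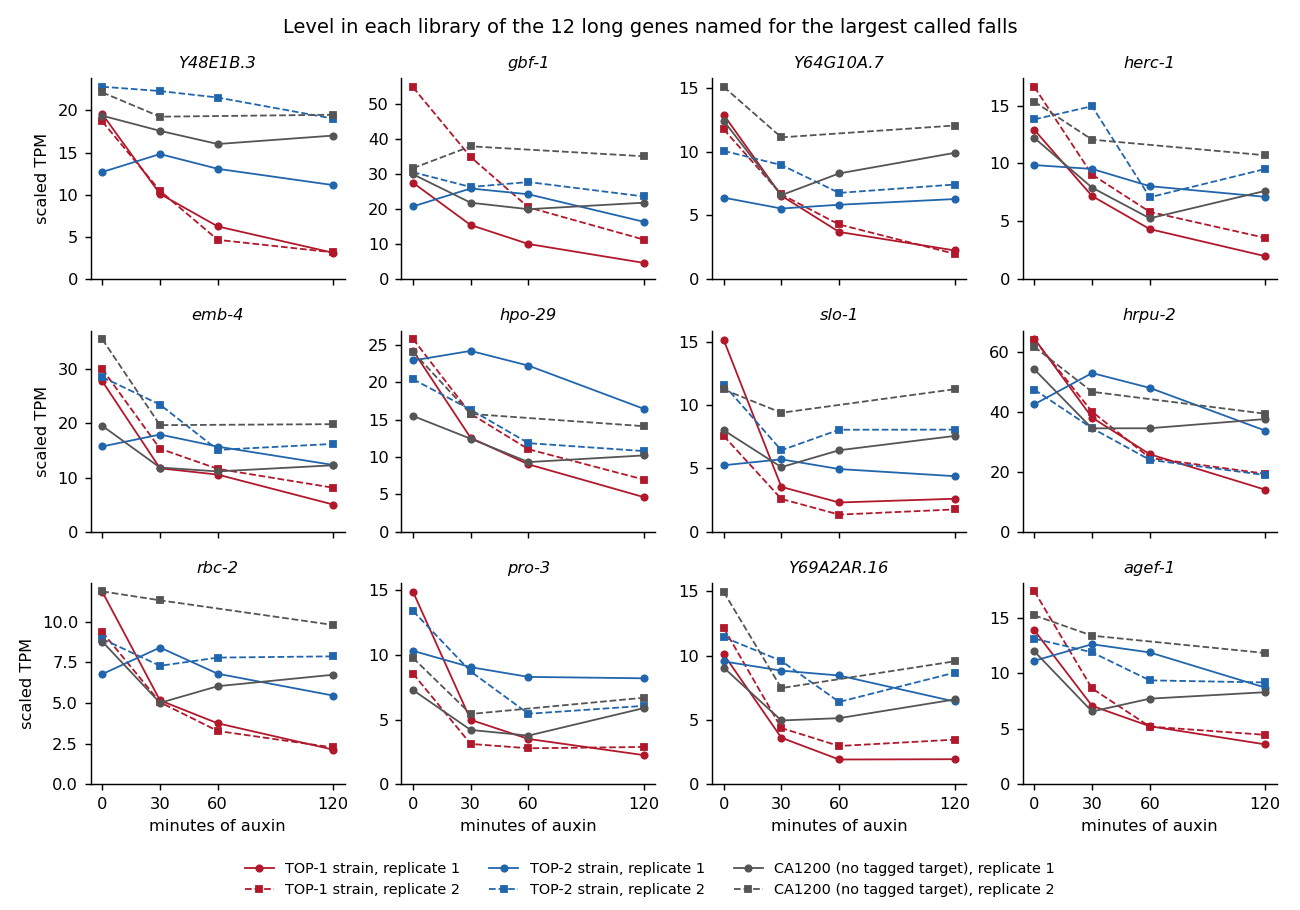
Scaled TPM against minutes of auxin for the 12 long genes with the largest called falls at 120 min in TOP-1 worms; lines join the libraries of a replicate in TOP-1 worms, TOP-2 worms and CA1200. In Y48E1B.3 the TOP-1 libraries go from 19.6 and 18.7 to 3.13 and 3.17, and those of CA1200 from 19.4 and 22.1 to 17.0 and 19.5.

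The order of levels over time is given for 4 long genes, without a test of a difference in time course. F53A10.2, a gene of 33408 bp on chromosome II, had the smallest p of the long genes at 30 min, with 32.1 and 23.1 scaled TPM without auxin and 6.68 and 7.88 at 30 min, a change of -1.77 ± 0.32 (limma adjusted p 0.108; 0.00465 with the block). It then stood at 8.63 and 9.81 at 60 min and 12.2 and 10.7 at 120 min, so it was lowest at the earliest time. ppgn-1, the worm paraplegin and a mitochondrial protease, was lowest at 60 min, with 9.42 and 9.86 scaled TPM without auxin, 2.58 and 3.73 at 30 min, 1.72 and 2.41 at 60 min and 2.27 and 3.08 at 120 min. It fell by 1.81 ± 0.26 at 60 min (adjusted p 0.0128) and by 1.54 ± 0.26 at 120 min (adjusted p 0.00999). C14B4.2 had the order of F53A10.2, with 6.15 and 5.41 scaled TPM, then 1.79 and 1.73, 2.00 and 1.98, and 2.52 and 2.95. F53A10.2, ppgn-1 and C14B4.2 were named for their small p at 30 min, which favours low levels there. ttn-1, the titin gene of 81719 bp, had a change of -0.03 at 30 min, -0.35 at 60 min and -0.93 at 120 min (adjusted p 0.480; 0.0397 with the block). Its level was 9.74 and 5.95 scaled TPM without auxin, 10.5 and 5.24 at 30 min and 4.20 and 2.96 at 120 min.

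The most negative changes at 120 min were those of nurf-1 and cdh-12, and limma called neither. nurf-1 had 855 and 970 scaled TPM without auxin in TOP-1 worms, 102 and 116.1 after 30 min and 79.9 and 72.2 after 120 min. CA1200 had 418 and 550 without auxin, 110 and 94.3 at 30 min, 78.6 at 60 min and 66.1 and 75.7 at 120 min. In TOP-2 worms replicate 2 went from 1001 through 591 and 87.8 to 67.9, and replicate 1, one of the libraries that stood apart, was at 37.1 before and 31.2 after. DPY-27 worms had 40.2 and 80.7 without auxin and 39.2 and 114 at 120 min. All libraries of TOP-1 worms and CA1200 with auxin were at 116.1 or less, and those without auxin at 418 or more.

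nurf-1 had a change of -3.57 ± 1.2 at 120 min in TOP-1 worms (adjusted p 0.160; 0.00240 with the block) and -2.74 ± 1.2 in CA1200 (adjusted p 0.983; 0.0482 with the block). Without the 6 libraries that stand apart it was called in CA1200 (-2.74, adjusted p 0.00355) and in TOP-2 worms (-3.86, adjusted p 0.00123). The TOP-2 value then compares 1 library with 1, and its spread is taken from the other groups. The authors' deposited table gives nurf-1 a log2 fold change of -2.77 in TOP-1 worms at 120 min, with an adjusted p of 3.57e-10.

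cdh-12, a cadherin gene, had 10.6 and 102 scaled TPM without auxin and 0.668 and 4.88 at 120 min in TOP-1 worms, a change of -3.47 ± 1.25 (adjusted p 0.197; 0.000206 with the block). Each replicate was lower at each later time, but the replicates lay too far apart for a call without the block. In CA1200 cdh-12 had 20.6 and 26.1 without auxin and 7.47 and 26.6 at 120 min. fipr-24 went the other way in TOP-1 worms, from 2.96 and 2.52 to 34.8 and 8.64 scaled TPM, a change of 2.31 ± 0.61 (adjusted p 0.0685; 0.00121 with the block), and in CA1200 from 3.38 and 2.36 to 12.7 and 5.30. Its reference gene is 468 bp long, and 13 other genes lie in the span listed for it.

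The long genes fall into families of known function, of which 75 were in 9 lists of roles. Of these 75, limma called 5 lower at 120 min in TOP-1 worms and 0 higher, against 1.11% and 0.827% of all genes. Counts with the block below stand against 11.5% of all genes called lower. The median of every list lay below 0 in TOP-1 worms at each time. It also did so in TOP-2 worms at 60 and 120 min and in CA1200 at 30 and 60 min. At 120 min the list medians of TOP-2 worms ran from -0.16 to -0.76. The CA1200 value at 60 min rests on a single library. That library is replicate 1, so its change is also given below against untreated replicate 1 alone. Differences between lists were not tested.

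The sarcomere and muscle attachment list had 9 long genes, among them ttn-1, unc-89 (obscurin), unc-22 (twitchin), dys-1 (dystrophin), unc-52 (perlecan) and the ryanodine receptor gene unc-68. Without auxin these 9 stood above CA1200 by a median of 0.88 in TOP-1, 0.70 in TOP-2 and 0.565 in DPY-27 worms. Their median change in TOP-1 worms was -0.38 at 30 min and -0.94 at 120 min, and 0 were called, or 7 lower with the block. At 60 min it was -0.61 in TOP-1 worms and -0.62 in CA1200. Within replicates it was then -0.74 and -0.46 in TOP-1 worms and -0.27 in CA1200 replicate 1. dys-1, for example, had 32.1 and 26.9 scaled TPM without auxin and 18.8 and 11.7 at 120 min, a change of -0.94 (adjusted p 0.301; 0.00403 with the block). In TOP-2 worms the same 9 had a median of -0.76 at 120 min, against -0.28 over all long genes, and 0.15 in CA1200. ttn-1 went there from 6.87 and 8.85 scaled TPM to 3.10 and 2.99 (-1.12 ± 0.51, adjusted p 1), and unc-22 from 31.4 and 25.9 to 14.2 and 13.6 (-0.99 ± 0.67, adjusted p 1). Shorter muscle genes also had negative changes in TOP-2 worms, of -0.41 for the myosin gene unc-54 and -0.56 for myo-3, neither called. Summed muscle markers were there 3814 and 2575 in TPM as deposited without auxin and 2440 and 2305 at 120 min. Unlike the changes above, these sums were not scaled between libraries. The factors that divide TPM in the scaling were 2.25 and 0.678, then 2.01 and 0.809, in the same order. In TOP-1 worms unc-54 and myo-3 changed by 0.01 and -0.08. The part of muscle content in these values was not tested.

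Giant cytoskeletal linkers and motors (12 long genes) had a median of -0.52 at 30 min and -0.51 at 120 min in TOP-1 worms, with 0 called, or 6 lower with the block. In CA1200 it was -0.46 at 30 min, -0.53 at 60 min and 0.02 at 120 min. Against untreated replicate 1 alone, the 60 min value was -0.47. They divided into members with large and with small changes. The spectraplakin gene vab-10 changed by -1.75, the nesprin gene anc-1 by -1.57 and the kinesin gene unc-104 by -1.16 (adjusted p with the block 0.000138, 0.00476 and 0.00734). fln-1 (filamin), sma-1 (heavy beta-spectrin), unc-44 and dhc-1 (dynein heavy chain) changed by -0.01, -0.08, -0.10 and -0.17, none of them called in either fit. fln-1 had 86.6 and 76.4 scaled TPM without auxin and 80.6 in both libraries at 120 min.

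Cell adhesion and matrix genes (16) had a median of -0.59 at 30 min and -0.92 at 120 min, with 0 called, or 9 lower with the block. CA1200 had -0.50 at 30 min, -0.82 at 60 min and -0.22 at 120 min, beside -0.74 at 60 min in TOP-1 worms. Within replicates at 60 min, CA1200 replicate 1 had -0.69 and TOP-1 worms -0.78 and -0.77. Among the 9 called with the block were let-805 (myotactin, -1.02), lrp-1 (a megalin relative needed for molting, -1.48), hmr-1 (-0.82) and cle-1 (collagen XVIII, -1.24). fbn-1, a fibrillin relative of the apical matrix, changed by -2.28 in TOP-1 worms and by -1.91 in CA1200, where its levels were 28.7 and 66.6 scaled TPM without auxin and 5.47 and 20.8 at 120 min. mig-6 (0.21) and the neurexin gene nrx-1 (0.31) had positive changes. nrx-1 had 34.5 and 17.4 without auxin and 40 and 23.5 at 120 min, which overlap.

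Ion channels and pumps (9) had a median of -0.75 at 120 min, with slo-1 called and 6 lower with the block, including mca-3, a plasma membrane calcium pump (-0.97), and unc-103, an ERG-type potassium channel (-0.75). Genes of the synapse and of neuronal secretion (8) had a median of -0.57 at both 30 and 120 min, with 0 called and 5 lower with the block. In CA1200 the channel list had -0.32, -0.52 and 0.00 at 30, 60 and 120 min, and the synaptic list -0.32, -0.49 and 0.02. Against untreated replicate 1 alone, the 60 min values were -0.33 and -0.30. egl-8, changed by -1.36, rimb-1, of the presynaptic active zone, by -1.21 and unc-13, a priming factor for vesicle release, by -0.94. unc-43 changed by -0.21.

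Kinases and other signalling genes (11) had a median of -0.75 at both 30 and 120 min, with 3 called (daf-2, dapk-1 and gap-3) and 7 lower with the block. unc-73, a guanine exchange factor of the Trio family, and mbk-2, a DYRK-family kinase, changed by -0.01 and -0.09. Transcription and chromatin genes (7) had a median of -0.77, with 0 called and 6 lower with the block. taf-1, a subunit of TFIID, changed by -1.52 and ssl-1, a chromatin remodeller, by -1.40. In CA1200 the kinase list had -0.33, -0.47 and 0.06 at the 3 times, and the chromatin list -0.24, -0.29 and -0.16. Against untreated replicate 1 alone, the 60 min values were -0.27 and -0.17. daf-16, the FOXO factor downstream of daf-2, changed by -0.21, from 71.5 and 42.8 scaled TPM to 51.0 and 44.8.

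The lists of RNA processing and of ubiquitin and trafficking held 2 long genes each. gcn-1, a translational regulator that acts with the kinase GCN2, changed by -1.22, and the 5′ to 3′ exonuclease gene xrn-1 by -1.33. Neither was called, and both were with the block (adjusted p 0.00148 and 0.000170). tat-1 was called, and the ubiquitin ligase gene eel-1 changed by -0.86. At 60 min the RNA processing list had -0.86 in TOP-1 worms and -0.87 in CA1200, and the ubiquitin and trafficking list -0.95 and -0.51. Within replicates at 60 min, the RNA processing list had -0.82 and -0.90 in TOP-1 worms and -0.47 in CA1200 replicate 1. The ubiquitin and trafficking list had -1.05 and -0.85, and -0.28.

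**Figure D4:**
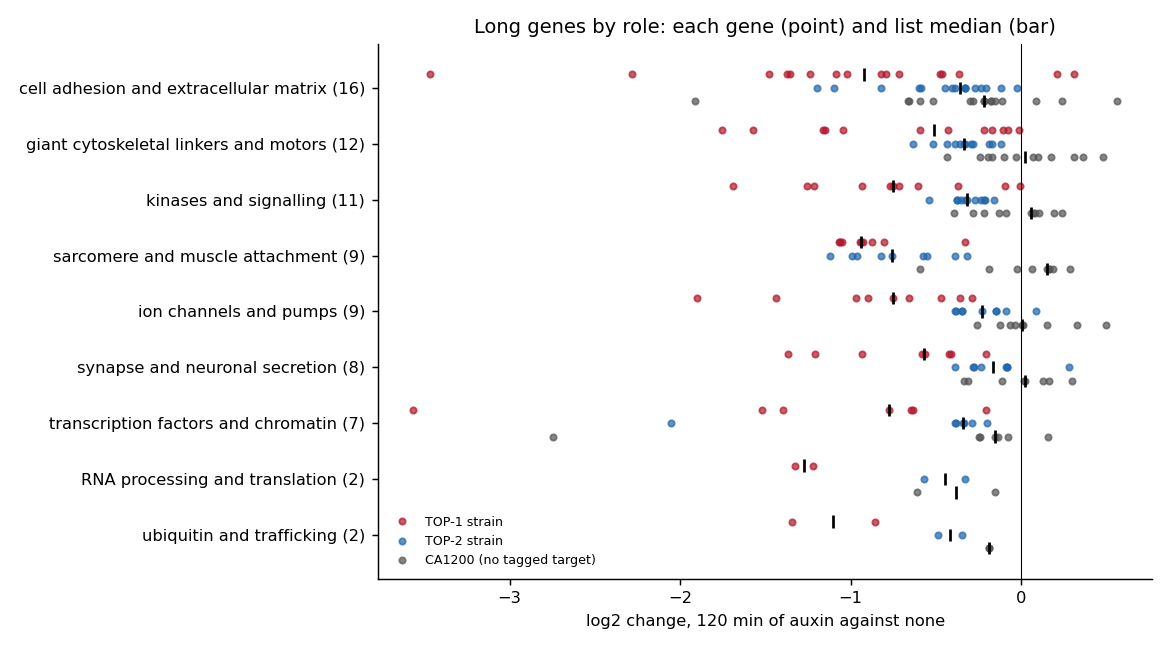
Log2 change at 120 min of auxin against none for the long genes of each role list (number in brackets), in TOP-1 worms, TOP-2 worms and CA1200; each point is a gene and black bars are medians. Medians in TOP-1 worms run from -0.51 in the giant cytoskeletal genes to -1.27 in the 2 genes of RNA processing. Those of TOP-2 worms run from -0.16 to -0.76, and those of CA1200 from -0.38 to 0.15.

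TOP-2 depletion was compared in the same way. The median long gene stood at 3.80 and 3.95 without auxin and at 3.57 and 3.66 after 120 min, which do not overlap. Its median change was -0.16 at 30 min, -0.22 at 60 min and -0.28 at 120 min, against -0.03 in the shorter genes at 120 min, and the replicate medians at 120 min were -0.30 and -0.25. The 120 min median became -0.14 when the first library with auxin was left out and -0.39 when the second was. Leaving out the first or second untreated library gave -0.35 or -0.18. Of the 281 changes 256 were negative. limma called 0 long genes at each of the 3 times, against 0% of all genes called lower. At an unadjusted p under 0.05, 5, 1 and 6 were lower and 0 higher, where the background was 0.645%, 0.526% and 0.476% lower and 0.792%, 0.785% and 1.17% higher. The block also called 0 and gave 50 lower at an unadjusted p under 0.05, against 4.06%. The 2 libraries at 120 min lay below the 2 without auxin in 78 long genes and above them in 2, where the background was 7.27% and 8.75%.

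The smallest p at 120 min in TOP-2 worms belonged to hrpu-2, with 42.5 and 47.3 scaled TPM without auxin and 33.7 and 18.9 after it (-0.80 ± 0.33, unadjusted p 0.0282, adjusted p 1). C41D11.3 (-0.79) and cua-1, a copper-transporting ATPase (-0.63), came next. At 30 min the smallest p-values belonged to lag-1, the transcription factor of Notch signalling (-0.91), K03H6.6 (-0.57) and shc-2 (-0.68), and at 60 min to pro-3 (-0.72), the kinase gene unc-82 (-0.89) and Y2C2A.1 (-1.18), all with an adjusted p of 1. Coding length had the largest rank correlation with the change, with a Spearman's rho of -0.38 over the 261 reference-long genes, beside -0.23 for span. Its counterpart in TOP-1 worms was -0.16. The 3 equal groups by coding length had medians of -0.23, -0.26 and -0.36, and the longest coding sequences included those of the muscle genes above. The authors' deposited table lists 0 long genes as changed in TOP-2 worms at 120 min, against 0% of its 16339 genes in each direction. Its median log2 fold change for the long genes is -0.34.

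CA1200 was given auxin in the same way and has no tagged target. The median long gene had 3.72 and 4.03 without auxin, 3.23 and 4.01 at 30 min, 3.38 in the single library at 60 min, and 3.53 and 4.01 at 120 min. Replicate 1 was lower after auxin and replicate 2 was not. The median change was -0.26 at 30 min, -0.45 at 60 min and -0.07 at 120 min. The 60 min value sets a lone replicate 1 library against both untreated libraries. Against untreated replicate 1 alone it was -0.29. Without 1 library at a time, the 120 min median ran from -0.30 (without 120 min replicate 2) and -0.22 (without 0 min replicate 1) to 0.07 (without 0 min replicate 2) and 0.15 (without 120 min replicate 1). limma called 0 long genes at any of the 3 times, with 12, 17 and 6 lower and 1 higher each time at an unadjusted p under 0.05, against 1.55%, 1.58% and 2.14% of all genes lower and 1.42%, 2.3% and 2.58% higher. The background called lower was 0%, 0% and 0.00701% over all genes, and with the block 1 long gene, nurf-1, was called lower at 120 min, against 0.946%. The smallest p-values at 30 min were those of mdt-17, a Mediator subunit (-1.01), npp-13, a nucleoporin (-0.79), and Y69A2AR.16 (-0.84), at 60 min those of herc-1 (-1.23), fbn-1 (-3.04) and ppgn-1 (-0.97), and at 120 min those of cua-1 (-0.70), fbn-1 (-1.91) and T28D6.6 (-1.01), with adjusted p from 0.866 to 1. Several of these were among the falls called in TOP-1 worms, where herc-1, Y69A2AR.16, ppgn-1 and cua-1 changed by -2.08, -1.74, -1.54 and -1.45. At 120 min the auxin libraries lay below the others in 38 long genes and above them in 31, where the background was 20.3% and 19.2%.

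DPY-27 worms had 3.78 and 3.82 without auxin and 3.72 and 3.68 after 120 min for the median long gene. Its median change was -0.04, with replicate medians of -0.07 and -0.03. limma called 0 long genes, against 0% of all genes lower and 0.0491% higher, and at an unadjusted p under 0.05 also 0, against 0.427% and 1.09%. The fit with the block called 0 as well, against 0% and 0.126%. It adds no term for DPY-27 worms, whose libraries are paired by the mixed-stage term in both fits. The smallest p-values belonged to ntl-11 (-0.87), ppgn-1 (-0.50) and ddx-27 (-0.63), all with an adjusted p of 1. For comparison, the 36 long genes on the X chromosome, where DPY-27 acts, had a median change of 0.23 in DPY-27 worms.

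In TOP-1 worms, the median of those 36 X-linked genes of at least 15000 bp was -0.30 at 30 min, -0.13 at 60 min and -0.04 at 120 min, with 19 of 36 negative and 0 called at 120 min, while the autosomal long genes went to -0.83. The same 36 genes had medians of -0.27, -0.40 and 0.02 in CA1200 at 30, 60 and 120 min. The CA1200 value at 60 min rests on a single library. In TOP-2 worms they had -0.24, -0.08 and 0.09 at these times. The difference between the chromosomes was not tested.

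The strains were then compared by the difference of their changes. Beyond the change in CA1200, the median long gene of TOP-1 worms moved by -0.38 at 30 min, -0.34 at 60 min and -0.69 at 120 min. The CA1200 change at 60 min sets a single replicate 1 library against both untreated libraries. limma called 0 long genes at each time. At an unadjusted p under 0.05, 6, 3 and 60 were lower, against 0.315%, 0.413% and 1.83% of all genes. With the block, 47 were called lower at 120 min and 0 higher, against 1.2%. Against TOP-2 worms the median difference at 120 min was -0.52, with 0 called by limma, 39 lower and 1 higher at an unadjusted p under 0.05 against 1.7% and 1.47%, and 29 lower with the block against 1.12%. TOP-2 worms beyond CA1200 had a median of -0.19, with 0 called in either fit and 2 lower at an unadjusted p under 0.05, against 0.273%.

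Y48E1B.3 had the smallest p beyond CA1200, with a difference of -2.10 ± 0.44 (limma adjusted p 0.511; 0.00111 with the block), and differed from TOP-2 worms by -2.07 ± 0.44. Y64G10A.7 differed by -1.79 and -1.89, in the same order. scpr-1 differed from CA1200 by -1.58, and rbc-2 from TOP-2 worms by -1.64. daf-2 differed from CA1200 by -1.75 (adjusted p 0.890; 0.0222 with the block). fbn-1 and nurf-1, whose levels were lower in CA1200 as well, differed by -0.37 and -0.82. At 120 min the authors' deposited table of TOP-1 worms against CA1200 lists 18 of 279 long genes as lower, against 0.685% of its genes, and those at 30 and 60 min list 0, against 0.0222% and 0.0297%. Without auxin it lists 0 as lower and 2 as higher, against 0.0535% and 1%.

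**Figure D5:**
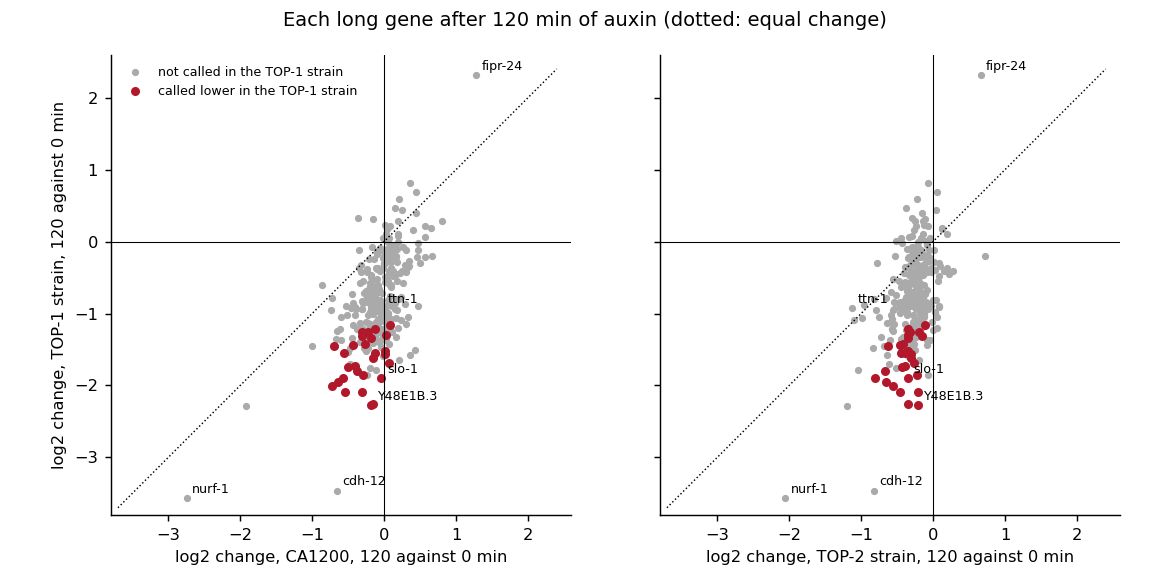
Log2 change at 120 min of each of the 281 long genes in TOP-1 worms (vertical) against that in CA1200 (left) and in TOP-2 worms (right); the 28 called genes are coloured and the dotted line marks equal change. The called genes lie below the line, nurf-1 lies low in all 3 strains, and fipr-24 stands highest at 2.31.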

How the data were processed

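The authors deposited FPKM and TPM per gene and library, per the file headers. The tools in the submitters' processing notes are DESeq2 1.30.0, Cufflinks 2.2.1, HTSeq 0.13.5, HISAT2 2.2.1 and CASAVA 1.8. No genome build is given in the sources used here. Coordinates are those of the deposited files. The authors' deposited comparison tables hold a mean signal, a log2 fold change with its error, a test score, and p-values before and after adjustment, and are quoted only where named. RNA was oligo(dT)-selected and libraries kept the strand (dUTP), per the labels' protocols. Per-library HTSeq counts were not used here.

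Libraries were put on a common scale by median-ratio factors for their TPM, computed over 12647 genes. Changes are relative to that scaling, so a shift of all transcripts would not be seen. limma 3.58.1 (R 4.3.3) was fitted to log2(scaled TPM + 1) with a mean per strain and time and a term for mixed-stage libraries, over all 27 libraries and the 14271 genes that reached a TPM of 1 in 2 or more libraries (12 residual degrees of freedom). Fold changes on this scale understate the change of low genes. P-values are two-sided and adjusted by the Benjamini-Hochberg method, and calls need an adjusted p under 0.05. The lone CA1200 library at 60 min is assumed to vary like the other groups. Depth was estimated from FPKM steps in 4100 genes with a single transcript. No 2 libraries held identical values.

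Replicate numbers come from the labels, except in DPY-27 worms. All 4 libraries there carry the same number, and the mixed-stage library of each group was numbered 2. The block has no term for DPY-27 worms, where the mixed-stage term pairs by stage in both fits. The treatment protocol split synchronized larvae into aliquots, and deviations of same-numbered libraries from their group means correlated at 0.63 to 0.90 in TOP-1 worms (6 pairs of groups), 0.78 to 0.89 in TOP-2 worms (6) and 0.38 to 0.70 in CA1200 (3). The numbers were therefore taken to pair the libraries, and calls with the replicate as a block are printed where they differ.

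Genes were named by rule: the 12 largest called falls in TOP-1 worms at 120 min and the 5 largest at 60 min, the 3 smallest p-values of a comparison without calls, the 10 longest, the 10 of highest level, those nearest the length threshold, and up to 6 members of a role list, the longest first. Other genes, such as cdh-12, tat-1, fbn-1, fln-1, nrx-1 and unc-104, were chosen after their values were seen. The members, lists and tests were chosen with earlier results of these data known. The procedure was tested on simulated data. Alternatives were scaling, pseudocount, filter, length threshold, overlap, FPKM, samples fitted, the block and leaving out libraries.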

Additional observations from a re-analysis of the deposited data

Results flagged for a closer look

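Differences between strains in the 120 min change were flagged where the test of the difference itself passed with the replicate as a block. Genes that passed are given by name where they were also among the 3 smallest p-values of that comparison. Beyond the change in CA1200, TOP-1 worms had 47 long genes called lower with the block, against 1.2% of all genes. Among the 47 were Y48E1B.3 (-2.10), Y64G10A.7 (-1.79) and scpr-1 (-1.58). Against the change in TOP-2 worms, 29 were called lower with the block, against 1.12% of all genes. Among the 29 were Y48E1B.3 (-2.07), Y64G10A.7 (-1.89) and rbc-2 (-1.64). Without the block limma called 0 in both comparisons, against 0% of all genes called lower. At an unadjusted p under 0.05, 60 and 39 were lower, against 1.83% and 1.7% of all genes. Groups of at most 2 libraries are too small for a search for single libraries far from the rest.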

How the results depend on the processing

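The count of 28 long genes called lower in TOP-1 worms at 120 min became 173 with the replicate block, 0 with TPM as deposited, 68 for spans of at least 10000 bp, 18 for spans of at least 20000 bp, 18 without overlapping genes, and 1 to 16 without single libraries. The count of 10 at 60 min became 155 with the replicate block, 0 with TPM as deposited, 2 with scaling over autosomal genes of 2 to 5 kb, 2 with a pseudocount of 5, 2 without the filter on low values, 18 for a mean TPM of at least 5, 24 and 6 for spans of at least 10000 and 20000 bp, 1 with only the strain compared in the fit, 20 without the 6 libraries that stand apart, and 0 without any single library. The count of 0 at 30 min became 100 with the block and 1, nurf-1, with only that strain or without the 6 libraries. nurf-1 was also the 1 called without the 6 libraries in CA1200 and in TOP-2 worms at 120 min, where TOP-2 groups then hold 1 library each and borrow their spread, and the 1 called with the block in CA1200. Counts for the TOP-1 change became 47 beyond CA1200 and 29 against TOP-2 worms with the block, which changed no other count.

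The median change at 120 min in TOP-1 worms was -0.60 with a pseudocount of 5, -0.61 at 10000 bp or more, and -0.67 to -0.90 without single libraries. In TOP-2 worms it was -0.21, -0.22 and -0.14 to -0.39. It turned to 0.0475 in CA1200 and 0.0396 in DPY-27 worms with TPM as deposited, and ran from -0.30 to 0.15 and from -0.0698 to -0.0341 without single libraries. TPM as deposited moved the median of the shorter autosomal genes by 0.08 in CA1200 at 120 min and -0.20 in TOP-2 worms at 30 min. For 17 called results of named genes, 37 of 226 alternatives and 50 of 68 refits without a single library lost the call. For 30 results that were not called, 9 of 385 alternatives and 0 of 138 such refits gained one. None of these reversed. The length, overlap and reference-span alternatives used the main fit, so the call of a named gene could not change there. With TPM as deposited, 0 of the 12 genes named for TOP-1 worms at 120 min stayed called. The cause of these shifts was not tested. The median long gene rested on 593 or more fragments in every library, and groups held at most 2 libraries. Leaving out the 6 libraries and the reference span were chosen after seeing the data.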

Other observations

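Of the long genes, 26 had a positive change in TOP-1 worms at 120 min, none of them called by limma. Beside fipr-24 and K03H6.6 they included T28B11.1 (0.68), the folliculin gene flcn-1 (0.59), gld-2, a cytoplasmic poly(A) polymerase (0.40), and cpna-1, a copine of muscle attachments (0.28). These genes were picked after their values were seen.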
